A study of Caenorhabditis elegans with 7 samples.

Results

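The Notch pathway genes described here are the receptor genes glp-1 and lin-12, the ligand genes lag-2, apx-1 and arg-1, the nuclear genes lag-1 and sel-8, and sel-7. They were chosen by name. The name lag-3, which is another name of sel-8, had no probe set of its own, so the 9 names stand for 8 genes. The probe set annotation gives these genes 11 probe sets of the 22548 tested, and every probe set is described. Worms of strain N2, the wild type, were grown from the egg for 3 days at 20°C to the young adult stage, and RNA of whole worms was hybridised to Affymetrix C. elegans arrays. Worms fed with 1 µg/mL of the synthetic cocoa peptide 13L in NGM, the standard agar medium, gave 3 arrays, named SL4, SL8 and SL12. Worms on NGM without the peptide gave 4 arrays, named SL1, SL5, SL9 and SL69. No mutation or transgene was present in either group, and each array holds RNA of a population of worms.

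In C. elegans, Notch signalling passes from cell to cell. A ligand of the DSL family on 1 cell binds the receptor on its neighbour, the receptor is cut by an ADAM protease and then by gamma-secretase, and its inner part enters the nucleus and forms a complex with the DNA-binding protein LAG-1 and the coactivator SEL-8. The worm has a pair of Notch receptors. GLP-1 keeps germ cells dividing in the gonad, where the distal tip cell presents LAG-2, and it also acts in the early embryo. LIN-12 acts mainly in somatic cells, among them the anchor cell and the vulval precursors of the larva. The receptor genes lie close together on chromosome III, with 6 protein-coding genes between them in the WBcel235 assembly, and lag-2 and apx-1 lie on chromosome V, also with 6 protein-coding genes between them.

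Values are on the log2 scale of the deposited table, whose offset is not stated, so levels of different probe sets were not set against each other. The arrays correlated between 0.982 and 0.995 over probe sets. The lowest mean correlations with the other arrays were those of SL69 (0.9880) and SL1 (0.9880), with SL12 close to them (0.9883). As a background, the 5 controls for yeast transcripts had means of up to 0.74, a level that 41.3% of all probe sets did not exceed on average. All 16 germ cell markers and all 17 oocyte and eggshell markers had means above the yeast controls. Of the 18 sperm markers with a probe set (24 were listed), 14 had, and spe-11, spe-38, spe-26 and fer-1 did not. These lists do not single out the dividing germ cells in which GLP-1 acts. Of the 12 somatic gonad and vulva markers, 6 had, and the 6 at or below that level were cog-1, egl-38, egl-17, gon-1, ceh-22 and hlh-12. In whole worms, fewer cells of a type and less RNA per cell cannot be told apart.

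The Notch genes fell into well measured and poorly measured ones. The probe sets of glp-1, lag-1 and apx-1 (brighter) lay far above the yeast controls on all 7 arrays, and those of lin-12, apx-1 (dimmer) and sel-7 (brighter) lay a little above them on all 7. The means of lag-2, arg-1, sel-8 and sel-7 (dimmer) did not exceed the highest yeast control, so these 4 probe sets carry little signal over background. The difference of 13L minus NGM was above 0 on 7 of the 11 probe sets and below 0 on 4, beside 51.6% above 0 among all that were tested. Its median was 0.07 over the members and 0.01 over all. None passed an adjusted p of 0.05 from limma, where adjusted values ran from 0.944 to 0.996. Before adjustment, p fell under 0.05 for 2 of them (lag-2 and the brighter probe set of sel-7), both higher in 13L. That is 18.2% of the members beside 5.11% of all probe sets tested, of which 2.54% were higher and 2.57% lower. The 13L and NGM arrays did not overlap on 1 of the 11 probe sets, which is 9.09%, beside 6.08% of all probe sets tested (3.31% higher and 2.77% lower). That 1 is the brighter probe set of sel-7. The study picked sel-7 by its fold change on these same arrays. The 18.2% and the 9.09% thus include a gene chosen for its difference, and they are descriptions only.

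**Figure D1:**
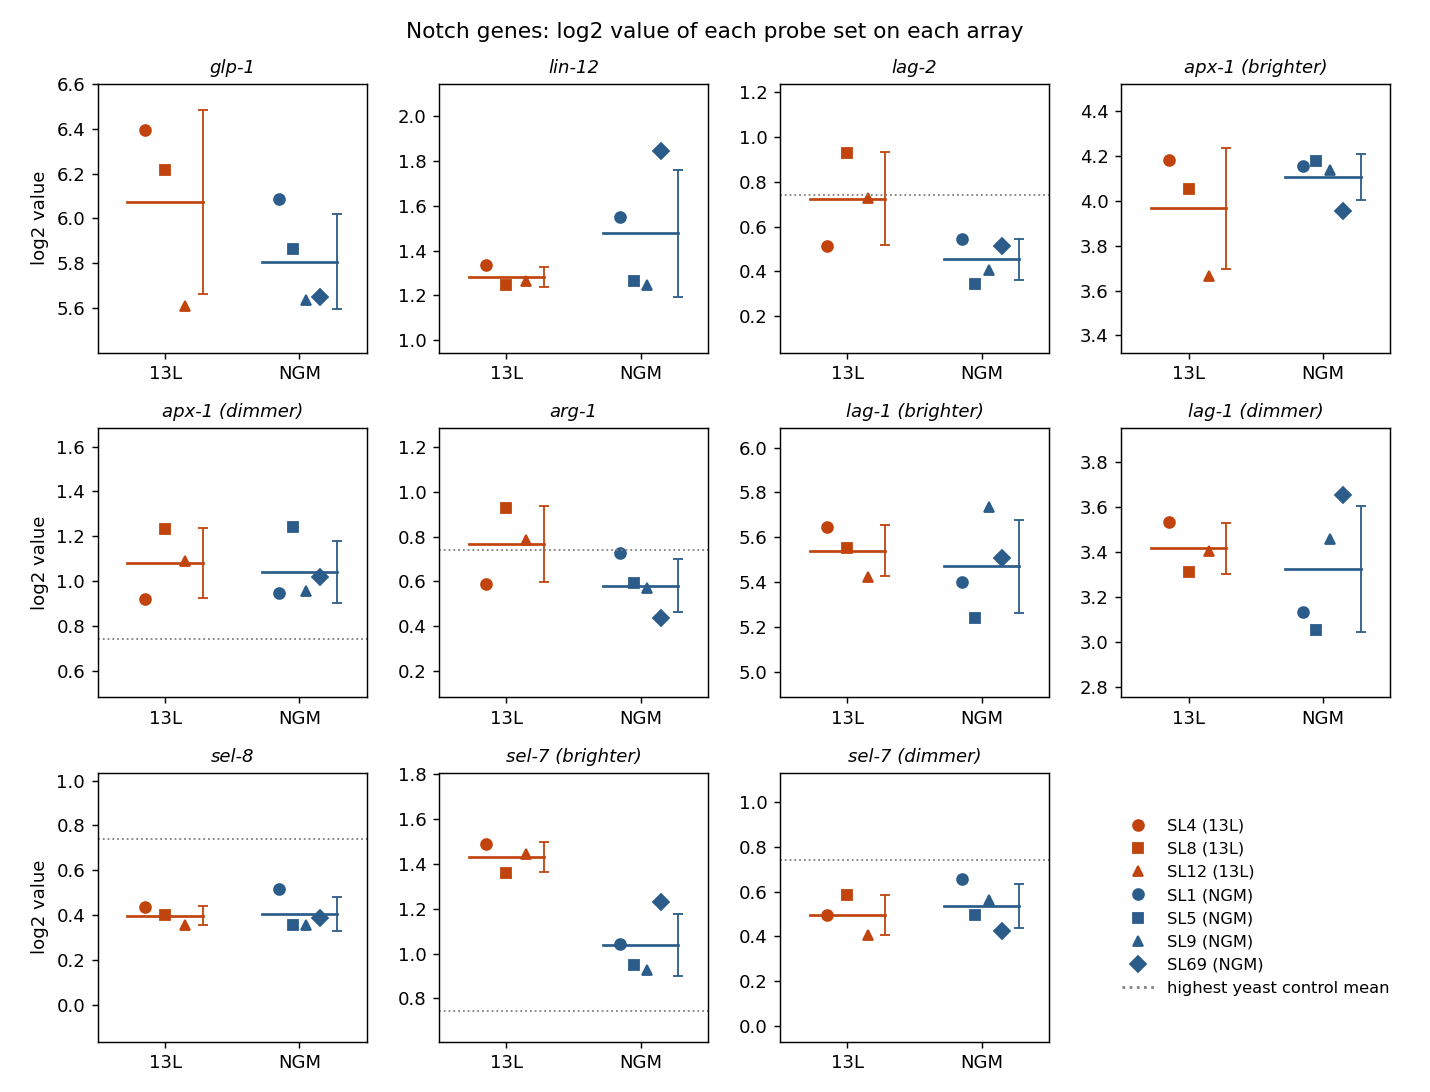
Log2 value of each of the 11 Notch probe sets on each array (points), for 13L (red, left) and NGM (blue, right), with group means (lines) and standard deviations (bars). Each panel spans the same 1.2 log2 units, and the dotted line is the highest yeast control mean, 0.74. The 13L points lie above all NGM points on the brighter sel-7 probe set.

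The germline receptor gene glp-1 had log2 values of 6.39 (SL4), 6.21 (SL8) and 5.61 (SL12) in 13L and 6.09 (SL1), 5.86 (SL5), 5.64 (SL9) and 5.65 (SL69) on NGM. SL4 and SL8 lay above every NGM array, while SL12 lay below every one. Means with SD were 6.07 ± 0.41 in 13L (n = 3) and 5.81 ± 0.21 on NGM (n = 4), which differ by 0.26 with a 95% interval of -0.17 to 0.70 (limma's unadjusted p = 0.202, adjusted p = 0.944). The exact permutation test over the arrays, two-sided, gave p = 0.343, where 0.0571 is the smallest value that 3 against 4 arrays allow. Without SL12 the difference was 0.50 (limma's unadjusted p = 0.011), and without SL4 it was 0.10 (limma's unadjusted p = 0.613). Thus the 13L arrays differed among themselves by more than the group means did. The values of glp-1 spanned 1.72-fold over the 7 arrays. Its within-group SD of 0.31 was larger than that of 82.9% of the brighter probe sets, those above the median of all.

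The somatic receptor gene lin-12 had log2 values of 1.33 (SL4), 1.25 (SL8) and 1.27 (SL12) in 13L and 1.55 (SL1), 1.27 (SL5), 1.25 (SL9) and 1.84 (SL69) on NGM. The 13L arrays, SL5 and SL9 lay within a narrow band, and SL69 and SL1 lay above it. Means with SD were 1.28 ± 0.05 in 13L (n = 3) and 1.48 ± 0.28 on NGM (n = 4), which differ by -0.19 with a 95% interval of -0.53 to 0.14 (limma's unadjusted p = 0.223, adjusted p = 0.946). Without SL69 the difference was -0.07, and without SL1 and SL69 it was 0.03.

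The receptors were then set against each other within each array, which asks if their levels moved differently with the peptide. The log2 value of glp-1 minus that of lin-12 was 5.06 (SL4), 4.97 (SL8) and 4.34 (SL12) in 13L and 4.53 (SL1), 4.60 (SL5), 4.39 (SL9) and 3.80 (SL69) on NGM. It differed by 0.46 between 13L and NGM, with a 95% interval of -0.27 to 1.19 and p = 0.229 by the exact permutation test, two-sided. Without SL69 the value was 0.28 and without SL12 it was 0.68, so the size rests on these arrays. A difference between the receptors in their response was therefore not detectable with these arrays. The interval still holds shifts of over 1 log2 unit.

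Over the arrays glp-1 and lin-12 did not vary together. Pearson's r was -0.18 (exact permutation p = 0.731) and Spearman's rho 0.20 (exact permutation p = 0.667) over 7 arrays, each with an adjusted p of 0.836 over the 8 coefficients computed. The r was 0.11 without SL4 and SL8, and 0.03 on deviations from the group means (exact permutation p = 0.942). Between glp-1 and sel-8 the r was 0.62 (exact permutation p = 0.126, adjusted 0.252) and the rho 0.78 (exact permutation p = 0.0571, adjusted 0.152), with r = 0.83 without SL4 and SL8. On deviations from the group means this r was 0.72 (exact permutation p = 0.0571, adjusted 0.152). No array had sel-8 above the highest yeast control, and its values spanned 0.16 log2 units.

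The genes whose values were most like those of each receptor were searched among 10073 other genes above the yeast controls, by Pearson's r over 7 arrays. For glp-1 these were ced-5, which acts in the engulfment of dying cells (r = 0.993), sec-16A.1, of the exit sites of the endoplasmic reticulum (0.987), the phenylalanine tRNA synthetase gene fars-1 (0.980), the inositol phosphatase gene ocrl-1 (0.977) and apr-1, the worm's APC homologue (0.977). Like glp-1, ced-5 was at 5.42 (SL4), 5.24 (SL8) and 4.88 (SL12) in 13L and at 5.23, 5.02, 4.89 and 4.90 on NGM (SL1, SL5, SL9 and SL69). With SL4 and SL8 left out, the arrays farthest from the glp-1 median, r lay between 0.954 and 0.991 for these genes. In all, 52 genes had an r over 0.9 with glp-1.

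For lin-12 they were mif-3, of the macrophage migration inhibitory factor family (r = 0.998), R12E2.7 (0.997), lon-8, which limits body length (0.994), H03E18.1 (0.993) and C35C5.9 (0.992), and 262 genes had an r over 0.9. All these genes were high on SL69 and SL1. The gene lon-8, for instance, was at 2.82 (SL4), 2.65 (SL8) and 2.87 (SL12) in 13L and at 3.85 (SL1), 2.73 (SL5), 2.67 (SL9) and 4.83 (SL69) on NGM. With SL69 and SL1 left out the r was 0.59 for lon-8 and 0.46 for C35C5.9, and 0.88 to 0.94 for the others. These likenesses are descriptions over 7 points that share the arrays' overall differences.

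**Figure D2:**
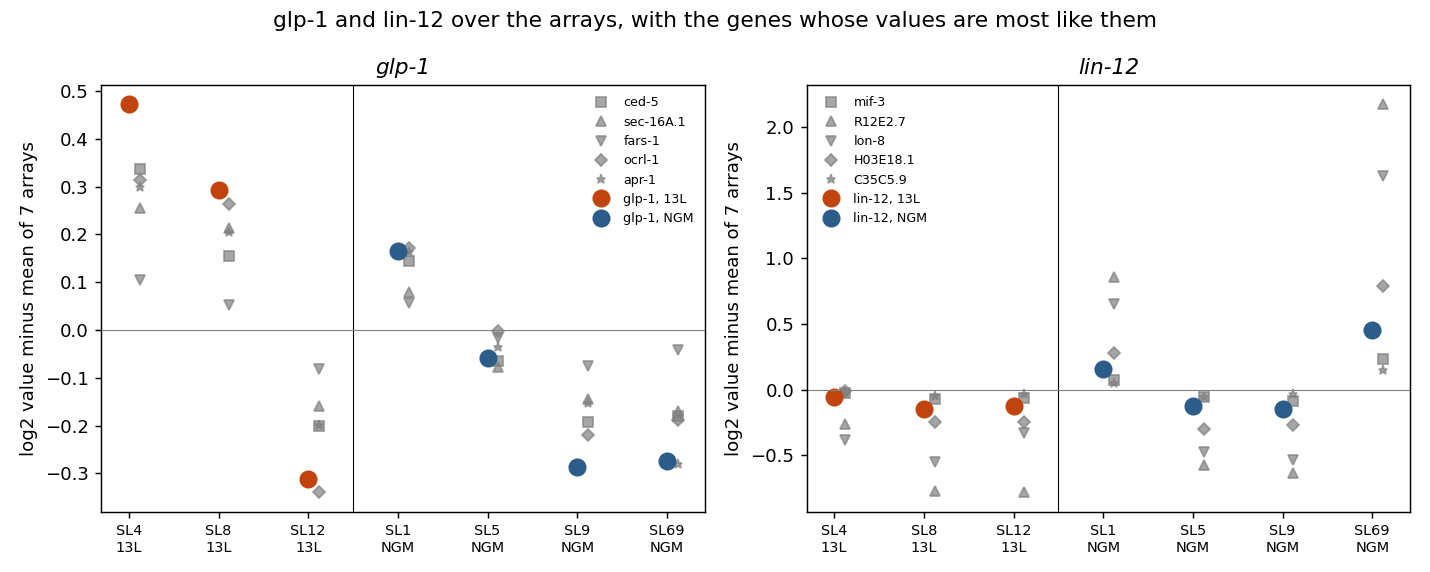
Log2 value minus the mean of the 7 arrays for glp-1 (left panel) and lin-12 (right panel), coloured red on 13L arrays and blue on NGM arrays, with the 5 genes of highest Pearson r in grey. The scales of the panels differ. For glp-1 the high arrays are SL4, SL8 and SL1, and for lin-12 they are SL69 and SL1.

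Mean levels of the marker lists differed between the arrays too. Germ cell markers had mean log2 levels of 5.74 (SL4), 5.80 (SL8) and 5.64 (SL12) in 13L and 5.57 to 5.68 on NGM. Oocyte and eggshell markers lay between 8.05 and 8.30 in 13L and 7.95 and 8.15 on NGM. Of the 16 germ cell markers 11 had a positive difference, and 1 was higher at an unadjusted p under 0.05 from limma. For the 17 oocyte and eggshell markers these counts were 12 and 2, and for the 18 sperm markers 14 and 0. Over all genes, 50.3% had a positive difference and 1.99% were higher at that p. Of the 12 embryo markers 4 had a positive difference and 1 was lower at that p, and 5 of 12 body muscle markers had a positive difference. Somatic gonad and vulva markers lay between 0.85 and 0.91 in 13L and 0.74 and 1.13 on NGM, with 1 of 12 on the positive side. The embryo markers, at or below the yeast controls for sdz-1, sdz-23 and hlh-1, lay between 1.30 and 1.62 in 13L and 1.38 and 1.86 on NGM, with the 2 highest values on SL1 and SL69. Sperm markers spanned 4.21-fold over the arrays, from 2.04 to 3.61 in 13L and from 1.53 to 3.36 on NGM. The part of these differences in the values of glp-1 and lin-12 was not tested.

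Among the ligands, lag-2, the signal of the distal tip cell, had log2 values of 0.52 (SL4), 0.93 (SL8) and 0.73 (SL12) in 13L and 0.54 (SL1), 0.35 (SL5), 0.41 (SL9) and 0.52 (SL69) on NGM. SL8 and SL12 lay above every NGM array, and SL4 lay among them. The difference was 0.27, with a 95% interval of 0.01 to 0.53 (limma's unadjusted p = 0.0432, adjusted p = 0.944; exact permutation p = 0.171). SL8 alone exceeded the highest yeast control. Without SL8 the difference was 0.17 (limma's unadjusted p = 0.181). With runs of title numbers as a block, which leaves SL69 without a partner, it was 0.29 (limma's unadjusted p = 0.0562).

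The maternal ligand gene apx-1, whose product activates GLP-1 in the early embryo, had a bright and a dim probe set. On the brighter, the log2 values were 4.18 (SL4), 4.05 (SL8) and 3.66 (SL12) in 13L and 4.15 (SL1), 4.18 (SL5), 4.14 (SL9) and 3.95 (SL69) on NGM. SL12 was the lowest array here as it was for glp-1, SL8 lay among the NGM arrays, and SL4 lay just above the highest of them, SL5. The difference was -0.14, with a 95% interval of -0.44 to 0.16, and it was 0.01 without SL12. On the dimmer probe set it was 0.04 (-0.22 to 0.30), with 0.92 to 1.23 in 13L and 0.95 to 1.24 on NGM.

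The ligand gene arg-1, expressed in non-striated muscle cells, had log2 values of 0.59 (SL4), 0.93 (SL8) and 0.78 (SL12) in 13L and 0.73 (SL1), 0.59 (SL5), 0.57 (SL9) and 0.44 (SL69) on NGM. The groups overlapped, and SL8 and SL12 were the arrays above the highest yeast control. The difference was 0.19, with a 95% interval of -0.07 to 0.44 (limma's unadjusted p = 0.131, adjusted p = 0.944). Without SL4 it was 0.27 (limma's unadjusted p = 0.047). For lag-2 and arg-1 the order of the 13L arrays was the same, SL8 above SL12 above SL4, at levels near background.

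In the nucleus, lag-1, which encodes the DNA-binding protein of the pathway, has a pair of probe sets, both well measured. The brighter probe set had log2 values of 5.65 (SL4), 5.55 (SL8) and 5.42 (SL12) in 13L and 5.40 (SL1), 5.24 (SL5), 5.73 (SL9) and 5.51 (SL69) on NGM. All 13L values lay within the range of NGM, and the difference was 0.07 with a 95% interval of -0.22 to 0.36. The dimmer probe set gave 3.31 to 3.54 in 13L and 3.05 to 3.65 on NGM, a difference of 0.09 (-0.25 to 0.44). On both probe sets SL5 was the lowest NGM array, and without SL5 the differences were -0.01 and -0.00013. As ratios of 13L to NGM over all arrays, the 95% intervals were 0.860 to 1.28 on the brighter probe set and 0.838 to 1.35 on the dimmer. The coactivator gene sel-8 had 0.36 to 0.44 in 13L and 0.36 to 0.52 on NGM, a difference of -0.01 (-0.20 to 0.19), and values this low say little of its RNA.

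The gene sel-7 encodes a nuclear protein that promotes lin-12 activity. Its brighter probe set had log2 values of 1.49 (SL4), 1.36 (SL8) and 1.44 (SL12) in 13L and 1.04 (SL1), 0.95 (SL5), 0.92 (SL9) and 1.23 (SL69) on NGM. The lowest 13L value exceeded the highest NGM value. The difference was 0.39, or 1.31-fold, with a 95% interval of 0.16 to 0.62 (limma's unadjusted p = 0.00383, adjusted p = 0.944; exact permutation p = 0.0571, the smallest the design allows). The study picked sel-7 by its fold change on these same arrays, so this separation is a description and not independent evidence. The dimmer probe set did not show it, with 0.50 (SL4), 0.59 (SL8) and 0.41 (SL12) in 13L and 0.65 (SL1), 0.50 (SL5), 0.56 (SL9) and 0.42 (SL69) on NGM, a difference of -0.04 (-0.25 to 0.18). That probe set lay below the highest yeast control on all arrays. Ordered by the difference, the brighter probe set of sel-7 held rank 244 of 22548, lag-2 rank 806 and glp-1 rank 859. The study listed sel-7, with a fold change of 0.39, among its most up-regulated genes. That place was not reproduced in the ordering used here, and the cause was not tested.

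**Figure D3:**
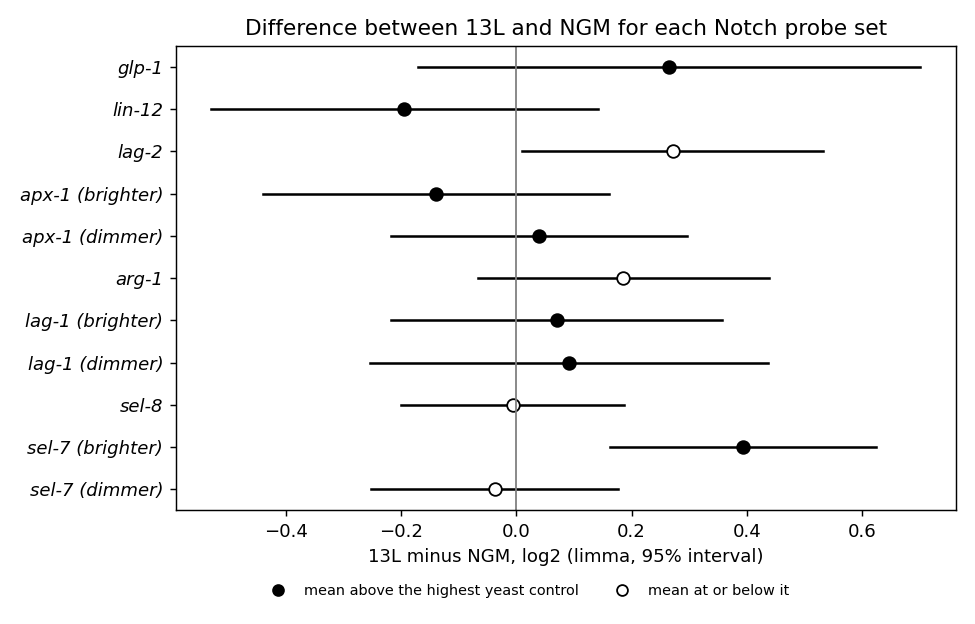
Difference between 13L and NGM for each Notch probe set on the log2 scale (points) with the 95% interval from limma (lines). Filled points have a mean above the highest yeast control and open points do not. The intervals of lag-2 and of the brighter sel-7 probe set lie above 0, and the other 9 include it.

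Further genes of the pathway were taken from 5 lists, of which 61 of 70 genes had a probe set of their own, and the brightest stood for each gene. Before adjustment, p fell under 0.05 for 1 gene higher and 4 lower in 13L, which is 8.20% of these genes beside 4.72% of all genes (1.99% higher and 2.73% lower), and none passed an adjusted p of 0.05 from limma. The arrays of the 2 diets did not overlap for 6 of the 61 genes (9.84%), beside 5.80% of all genes. The difference was above 0 for 26 of the 61, beside 50.3% of all genes, and its median was -0.03, against 0.00097 over all genes.

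The further ligands held the lowest differences. Of 11 genes, 2 had a positive difference and 9 a negative one. Only 6 of the 11 had means above the highest yeast control, and dsl-4, dsl-5, dos-1, dos-2 and dos-3 did not. The 2 with a positive difference, dsl-5 and dos-1, were among those at or below it. The median was -0.11, the value of dsl-4, and without SL1 and SL69 it was 0.03. Among the 11 ligands was dsl-1, a secreted ligand that acts beside lag-2 and apx-1 in the vulva. It had log2 values of 1.67 (SL4), 1.46 (SL8) and 1.42 (SL12) in 13L and 2.04 (SL1), 1.87 (SL5), 1.80 (SL9) and 2.18 (SL69) on NGM. Every 13L array lay below every NGM array, by a difference of -0.45 with a 95% interval of -0.72 to -0.18 (limma's unadjusted p = 0.00427, adjusted p = 0.944).

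Another member of the family, dsl-2, had log2 values of 3.98 (SL4), 3.85 (SL8) and 3.45 (SL12) in 13L and 4.31 (SL1), 4.15 (SL5), 4.12 (SL9) and 4.52 (SL69) on NGM. Here too the groups did not overlap, and the difference was -0.51 with a 95% interval of -0.85 to -0.17 (limma's unadjusted p = 0.0078, adjusted p = 0.944). For both genes SL69 and SL1 were the highest arrays, the same that were high for lin-12. Without SL1 and SL69, left out after their correlations were known, the difference was -0.32 for dsl-1 (limma's unadjusted p = 0.0346) and -0.37 for dsl-2 (limma's unadjusted p = 0.0612). The neuron markers also lay lower in 13L, with mean levels of 2.36 to 2.48 in 13L and 2.5 to 2.74 on NGM. Of these 16 genes, 14 had means above the highest yeast control, and unc-31 and rgef-1 did not. On the negative side were 13 of the 16, and 2 (unc-31 and egl-21) were lower at an unadjusted p under 0.05 from limma. Over all genes, 50.3% had a difference above 0 and 2.73% were lower at that p. The part of the neuron markers in the ligand values was not tested. For dsl-6 the difference was -0.38 (limma's unadjusted p = 0.386), and it was 0.04 without SL69, where the gene stood at 3.04 against 0.99 to 1.83 on the other NGM arrays.

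Among 10 genes of receptor processing, 5 differed upwards and 5 downwards, with p over 0.05 for each. The gamma-secretase subunit gene pen-2 was at 4.94 (SL4), 4.96 (SL8) and 4.95 (SL12) in 13L and at 5.03 (SL1), 5.26 (SL5), 5.18 (SL9) and 5.07 (SL69) on NGM. These groups did not overlap, with a difference of -0.18 (limma's unadjusted p = 0.0709, adjusted p = 0.944). The tetraspanin genes tsp-14 and tsp-12 differed by -0.22 and 0.16. The presenilin genes sel-12 and hop-1, whose products are the catalytic subunits, differed by -0.15 and 0.03, and the ADAM protease genes sup-17 and adm-4 by 0.02 and -0.13, values within the spread of the arrays.

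Of 16 regulators of Notch activity, 8 had a positive difference. The E3 ubiquitin ligase gene sel-11 was at 5.06 (SL4), 5.23 (SL8) and 5.17 (SL12) in 13L and at 5.0 (SL1), 4.84 (SL5), 5.04 (SL9) and 4.82 (SL69) on NGM, with no overlap and a difference of 0.23 (limma's unadjusted p = 0.0414, adjusted p = 0.944). With the block the difference was 0.19 (limma's unadjusted p = 0.115), and its dimmer probe set differed by -0.18. The zinc finger gene spr-3, a suppressor of presenilin loss, differed by -0.30 and ego-1, an RNA-dependent RNA polymerase of the germline, by -0.17, without a call.

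Targets of Notch signalling had 4 of 14 genes on the positive side. Of the 14, 10 had means above the highest yeast control. Those that did not were hlh-26 and egl-43, on the positive side, and lip-1 and nhr-67, on the negative. The median of the targets was -0.07, but it was 0.0095 with the probe sets of a gene averaged and 0.0038 without SL8. The histone demethylase gene utx-1 was the gene at an unadjusted p under 0.05, with 3.69 (SL4), 3.29 (SL8) and 3.03 (SL12) in 13L and 4.0 (SL1), 3.48 (SL5), 3.73 (SL9) and 3.74 (SL69) on NGM. The groups overlapped, and the difference was -0.40 (limma's unadjusted p = 0.0444, adjusted p = 0.944). It was -0.12 on the dimmer probe set, and without SL4 it was -0.58 and without SL12 -0.25. The receptor kinase regulator gene ark-1 differed by -0.29 (limma's unadjusted p = 0.107, and 0.0145 with the block) and egl-43, a zinc finger gene that was at the level of the yeast controls, by 0.20. The direct germline targets of GLP-1 were unequally measured. Of these, lst-1 was at 5.90 (SL4), 5.55 (SL8) and 5.49 (SL12) in 13L and at 5.63 (SL1), 5.24 (SL5), 5.34 (SL9) and 5.59 (SL69) on NGM, a difference of 0.19 (limma's unadjusted p = 0.197). For sygl-1, with 0.67 to 1.10 in 13L and 0.59 to 1.22 on NGM, the difference was -0.05.

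Of 10 germline decision genes downstream of glp-1, 7 were on the positive side, and the median was 0.07. The poly(A) polymerase gene gld-2, which promotes entry into meiosis, was at 5.20 (SL4), 5.11 (SL8) and 4.85 (SL12) in 13L and at 5.22 (SL1), 5.47 (SL5), 5.38 (SL9) and 5.27 (SL69) on NGM. Every 13L array lay below every NGM array, with a difference of -0.28 (limma's unadjusted p = 0.0333, adjusted p = 0.944). The gene has 5 probe sets in all, and the dimmer ones differed by 0.16 to -0.28. Its partner gene rnp-8 differed by 0.26 (limma's unadjusted p = 0.123, and 0.0404 with the block). The difference was 0.16 for puf-8, a Pumilio-family RNA-binding protein gene (limma's unadjusted p = 0.141). The translational repressor gene gld-1 had a difference of -0.01.

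**Figure D4:**
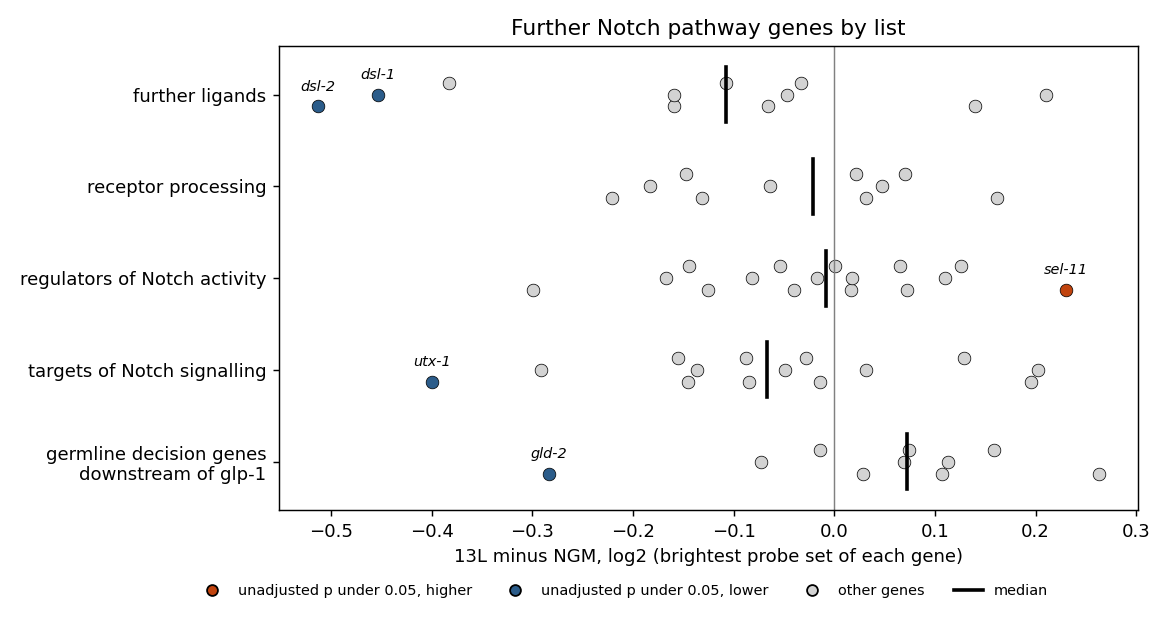
Difference between 13L and NGM on the log2 scale for the brightest probe set of each further Notch gene, by list, with list medians as black bars. Coloured points had an unadjusted p under 0.05 from limma (blue lower, red higher), and none passed the adjusted test. The 2 lowest points, dsl-2 at -0.51 and dsl-1 at -0.45, are both ligands.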

How the data were processed

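Whole young adult N2 worms fed with 13L (3 arrays) or on NGM (4 arrays) were measured on 1 Affymetrix array each. The deposited values are log2 intensities after RMA background correction and quantile normalization by the authors, who do not state their offset. Per the submitters' processing notes, RMA and limma were used. The sources used here do not give versions, and the precision is limited by the number of arrays. Array medians lay between 1.01 and 1.06, and the values of all arrays differed.

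The members and gene lists were chosen with earlier results of these data known. Gene names come from the platform annotation, with symbols updated by gene identifier, which gave 17118 genes. Of the 22625 probe sets, 77 controls were left out, and 887 of those tested named several genes and 895 none, so none was named from them. The difference of 13L minus NGM was tested on all 22548 by the moderated test of limma 3.58.1, run in R 4.3.3 (two-sided, Benjamini-Hochberg adjustment over all, threshold 0.05). Exact permutation tests over the arrays used scipy 1.17.1. The named genes were every member, the genes of each further list at an unadjusted p under 0.05 and the 3 with the largest difference, and the 5 genes most like glp-1 and lin-12. Further genes of these lists (sel-12, hop-1, sup-17, adm-4, lst-1, sygl-1, fbf-2, lip-1 and gld-1) were added once their values were known. The fit was tested on simulated data of 22548 probe sets. At an adjusted p under 0.05 from limma, it recovered 8 of 50 differences of 0.5 log2 units and 38 of 50 of 1 unit. Of those of 2 and of 3 units it recovered all 50 each. Most differences of 0.5 log2 units were thus missed in the simulated data. Whether the real arrays, whose deviations are partly shared, would give the same rates was not tested. Deviations from the group means correlated over probe sets at 0.529 (SL1 and SL4), 0.156 (SL5 and SL8) and 0.537 (SL9 and SL12), pairs taken from runs of title numbers, and a fit with these runs as a replicate block is given where it changed a call. No source calls the runs a batch. Nothing in the labels otherwise pairs the arrays or says which came from separate cultures, so that p-values rest on the spread between these samples, which the methods call biological replicates. The alternatives are listed with their effects below.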

Additional observations from a re-analysis of the deposited data

Results flagged for a closer look

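On the brighter probe set of apx-1, SL69 was far below the other NGM arrays, with 3.95 beside 4.14 to 4.18, a gap of 0.838 of the range of the group, more than Dixon's test allows for 4 arrays. For the target gene egl-43, SL9 was far below the others, with 0.19 beside 0.36 to 0.40, also a gap of 0.838 of the range, at a level below the highest yeast control. In all, 27 sets of NGM values were looked at, and chance gives such a gap in about 1 of 20.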

How the results depend on the processing

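Each array was left out in turn, and runs of title numbers as a replicate block, the 11274 brighter probe sets, averaged probe sets of a gene, cyclic loess, median centring, array weights and a robust trend in limma were tried. A fit without SL1 and SL69 was added after the data were seen. No alternative gave a probe set at an adjusted p under 0.05 from limma (lowest adjusted p = 0.180, with the block), and at an unadjusted p under 0.05 the count over all was 1777 with the block and 592 among the brighter probe sets, against 1152. The glp-1 minus lin-12 difference stayed positive, from 0.28 (without SL69) to 0.68 (without SL12) with single arrays left out, 0.28 with the replicate block, and 0.30 without SL1 and SL69. As SL69 has no partner in the block, every difference with the block equals that without SL69. For the size of a difference these are thus not separate alternatives. Both receptors have 1 probe set, so averaging probe sets could not change the glp-1 minus lin-12 difference. Among the 11 Notch probe sets the count at an unadjusted p under 0.05 was 2, and it was 1 to 3 with single arrays left out (3 without SL4, where arg-1 joined), 1 with the block and 1 among the brighter probe sets, where lag-2 was not tested. The brighter sel-7 probe set kept an unadjusted p under 0.05 from limma in all 14 alternatives. That of lag-2 did so in 7 of 13, with unadjusted values of 0.0112 to 0.181 from limma. The alternatives reuse the arrays on which the study picked sel-7 by its fold change, so they are not independent evidence for it. The further genes at an unadjusted p under 0.05 numbered 5, and 2 to 10 with single arrays left out (2 without SL8, 2 without SL12, 10 without SL4), 7 with the block and 3 among the brighter probe sets. With the block, lag-2 and sel-11 lost an unadjusted p under 0.05 and ark-1 and rnp-8 gained one, and no other named gene crossed it. The cause was not tested.

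Directions turned where differences were small. Without SL1 and SL69 the difference was 0.027 for lin-12, -0.018 for apx-1 (dimmer), 0.042 for sel-8, 0.28 for dsl-6 and 0.011 for spr-3. With single arrays left out it ranged from -0.027 to 0.031 for sel-8, -0.083 to 0.0075 for sel-7 (dimmer), -0.0066 to 0.16 for lag-1 (brighter), -0.00013 to 0.20 for lag-1 (dimmer), -0.036 to 0.12 for apx-1 (dimmer), -0.25 to 0.011 for apx-1 (brighter) and -0.64 to 0.038 for dsl-6. List medians turned too. That of the further ligands was 0.033 without SL1 and SL69, and that of the targets 0.0095 with probe sets averaged and 0.0038 without SL8. That of receptor processing was up to 0.024 (without SL12) and that of the regulators up to 0.057 (without SL12), while that of the germline decision genes stayed above 0 in all settings tried. Array weights gave 0.0035 for sel-8, and the replicate block 0.038 for dsl-6. In the block, SL1 shared a run with SL4, SL5 one with SL8 and SL9 one with SL12, and SL69 stood alone. Signal near the yeast controls limits lag-2, arg-1, sel-8 and the dimmer sel-7 probe set.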
